A study of Mus musculus with 4 samples.

Results

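The genes described here are 10 genes of the circadian clock, Nr1d1, Nr1d2, Per1, Per2, Per3, Cry1, Cry2, Arntl, Clock and Ciart, out of 32285 genes counted. They were chosen by name, with earlier results of these data known, and Nr1d1 also because it lies next to Thra, the gene that was mutated in the study. Each symbol was found once in the count tables. The study sequenced RNA from single nuclei of the hypothalamus of adult male mice on a C57/BL6NCr background. The mice were either wild type (WT) or heterozygous for a point mutation in Thra that strongly lowers the affinity of thyroid hormone receptor α1 for thyroid hormone (TRα1+m). The TRα1+m mice carried the mutation in every cell and kept 1 normal Thra allele. The experiment was done in 2 independent repeats, and each repeat gave 1 WT and 1 TRα1+m library, each from the pooled nuclei of 3 mice, so that 12 mice gave 4 libraries. The mice were kept under 12 h of light and 12 h of darkness. The hour of dissection is not given in the sources used here. The question asked of the clock genes was how large the difference between genotypes was against the difference between the repeats.

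The mammalian clock is a loop of transcription and translation that runs in most cells. CLOCK and BMAL1, the product of Arntl, bind E-box sequences as a pair and switch on the Period (Per), Cryptochrome (Cry) and Nr1d genes, and the PER and CRY proteins then hold back their own activators. REV-ERBα and REV-ERBβ, the products of Nr1d1 and Nr1d2, repress Arntl through sequences that the ROR receptors also bind, and CIART (also called CHRONO) is a further repressor of the CLOCK and BMAL1 pair. In the hypothalamus the suprachiasmatic nucleus, which contains vasopressin neurons, sets the phase of the other tissues.

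UMIs (unique molecular identifiers, each standing for 1 captured RNA molecule) were summed for each library over the nuclei of each cluster in the authors' annotation. The 5 main clusters compared were Neurons_1, Astrocytes, Oligodendrocytes, OPC (oligodendrocyte precursor cells), and Microglia, Macrophages, and 14 sub-clusters of the first 2 were also compared. Levels are given as CPM, the UMIs of a gene for every 1000000 UMIs of the cluster in that library. The libraries held 11976 to 16435 nuclei and 47260127 to 59112785 UMIs, with a median of 2904 to 4018 UMIs per nucleus, and pairs of libraries shared 44 to 64 nucleus barcodes, 0.367% to 0.443% of the smaller library. Each set of marker genes had its highest sum in the main cluster of that name, for example 3210 to 3472 CPM of 5 neuronal markers in Neurons_1 against 495 to 1051 CPM in the glial clusters, and 4879 to 7839 CPM of 4 astrocyte markers in Astrocytes against 170 to 1168 CPM in the others. The cluster Neurons_2 was left out because 852 of its nuclei came from the TRα1+m library of repeat 2 and 1 to 6 from each other library. Non-neuronal cells, a main cluster of 34 to 80 nuclei per library, was also not compared.

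Promoter windows of the clock genes show which of the known control sequences lie near their start sites. RefSeq windows on GRCm38.p6, from 250 bases before to 50 bases after the start, existed for 9 of the 10 genes, in 13 windows, and Per2 had no entry. The windows of 4 genes that the results below turn on are given in lower case, with the matches in capitals. These are the matches to the E-box variant CACGTT, which reads AACGTG on the printed strand of Nr1d1, to the core site AGGTCA of nuclear receptors, to the longer site TAGGTCA for REV-ERB and ROR, and to the D-box TTATGTAA bound by DBP, TEF and HLF.
Nr1d1, chr11:98775328-98775627, minus strand: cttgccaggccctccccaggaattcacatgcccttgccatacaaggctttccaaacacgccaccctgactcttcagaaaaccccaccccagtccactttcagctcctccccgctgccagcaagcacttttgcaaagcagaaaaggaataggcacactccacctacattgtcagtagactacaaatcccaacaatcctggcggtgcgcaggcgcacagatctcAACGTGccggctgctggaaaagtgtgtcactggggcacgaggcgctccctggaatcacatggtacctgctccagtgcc
Nr1d2, chr14:18239057-18239356, minus strand: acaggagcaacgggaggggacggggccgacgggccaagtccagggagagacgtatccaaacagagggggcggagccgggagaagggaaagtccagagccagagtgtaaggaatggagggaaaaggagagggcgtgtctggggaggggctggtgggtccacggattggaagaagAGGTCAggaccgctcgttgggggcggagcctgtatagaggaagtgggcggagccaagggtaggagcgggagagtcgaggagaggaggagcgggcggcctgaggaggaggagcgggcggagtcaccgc
Per3, chr4:151044616-151044915, minus strand: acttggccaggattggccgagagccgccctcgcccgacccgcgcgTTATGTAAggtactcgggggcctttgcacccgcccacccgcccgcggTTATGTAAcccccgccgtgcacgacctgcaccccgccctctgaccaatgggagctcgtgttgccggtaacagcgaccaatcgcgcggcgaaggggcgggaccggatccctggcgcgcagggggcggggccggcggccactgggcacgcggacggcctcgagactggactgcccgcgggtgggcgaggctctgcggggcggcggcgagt
Arntl, second window, chr7:113207261-113207560, plus strand: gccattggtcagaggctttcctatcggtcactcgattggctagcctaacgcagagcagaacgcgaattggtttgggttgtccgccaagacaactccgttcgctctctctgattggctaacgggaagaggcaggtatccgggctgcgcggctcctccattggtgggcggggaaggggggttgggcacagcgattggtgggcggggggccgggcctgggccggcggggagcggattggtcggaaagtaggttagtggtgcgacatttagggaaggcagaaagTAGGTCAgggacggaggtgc

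Across all 32851 windows in the table, counting both strands, the E-box CACGTG was found in 7.15%, and it was present for Per1, Cry1 and Ciart, with 3 matches for Ciart. The variant CACGTT was found in 4.68% of all windows and for Nr1d1, Cry1 and Cry2. TAGGTCA, which contains AGGTCA, was found in 2.61% of all windows and among the 10 genes in that of Arntl. AGGTCA, counted also within TAGGTCA, was found in 16.3% of all windows and in those of Nr1d2, Per1, Arntl and Clock. For Arntl it was part of the TAGGTCA match. TTATGTAA was found in 0.938% of all windows and in that of Per3, where it occurred 2 times, 205 and 158 bases before the start. TGGGTCA, TTACGTAA and the cyclic AMP response element TGACGTCA were found in 3.98%, 0.119% and 1.79% of all windows and for none of the 9 genes. A match is a description of the letters and not a bound site.

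Nr1d1 had its highest mean level in Astrocytes, 40.7 ± 17.1 CPM (SD, n = 4 libraries), and its lowest in Neurons_1, 11.5 ± 4.95 CPM. Microglia, Macrophages (36.0 ± 7.93 CPM), OPC (23.0 ± 9.80 CPM) and Oligodendrocytes (19.9 ± 10.6 CPM) lay between, and no neighbours in this order had ranges that were apart. Within each of the 4 libraries Nr1d1 was lowest in Neurons_1. Its partner Nr1d2 was highest in Microglia, Macrophages (106 ± 23.0 CPM) and Astrocytes (103 ± 17.7 CPM), which did not separate. Nr1d2 then dropped to 72.1 ± 4.82 CPM in OPC, 66.7 ± 15.8 CPM in Oligodendrocytes and 57.0 ± 5.10 CPM in Neurons_1, and the ranges of Astrocytes and OPC did not overlap. These orders across cell types are descriptions, since all clusters came from the same 4 libraries.

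Among the Period genes, Per3 had the widest spread over cell types, from 142 ± 33.1 CPM in Astrocytes to 18.6 ± 4.40 CPM in Oligodendrocytes, and both ends were apart from their neighbours. Per2 was also highest in Astrocytes (34.7 ± 8.73 CPM) and lowest in Oligodendrocytes (7.11 ± 1.29 CPM), with Neurons_1 at 12.9 ± 1.64 CPM. Per1 lay at 18.4 ± 4.05 CPM in Astrocytes, 18.3 ± 4.14 CPM in Oligodendrocytes and 9.33 ± 1.65 CPM in Neurons_1. Cry2, a repressor of the loop, was 87.1 ± 9.92 CPM in Astrocytes and 27.6 to 36.1 CPM on average elsewhere, with no overlap between Astrocytes and the next cluster. Cry1 was between 12.8 and 18.2 CPM on average in all 5 clusters, and no neighbours were apart.

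The activators had another order. Clock was lowest in Astrocytes, 83.3 ± 0.992 CPM, apart from OPC at 106 ± 7.05 CPM, and highest in Oligodendrocytes (136 ± 8.77 CPM) and Neurons_1 (134 ± 7.06 CPM). Arntl was 50.03 ± 3.48 CPM in Neurons_1, 47.7 ± 7.74 CPM in Astrocytes and 37.2 ± 8.62 CPM in Microglia, Macrophages, and 21.3 ± 3.62 CPM in Oligodendrocytes and 17.3 ± 5.99 CPM in OPC. Ciart was the least counted gene in Microglia, Macrophages, with 15 UMIs over the 4 libraries, too few to be tested there, and lay at 6.11 to 8.55 CPM on average in the other clusters. That left 49 tests of a gene in a main cluster for each comparison.

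**Figure D1:**
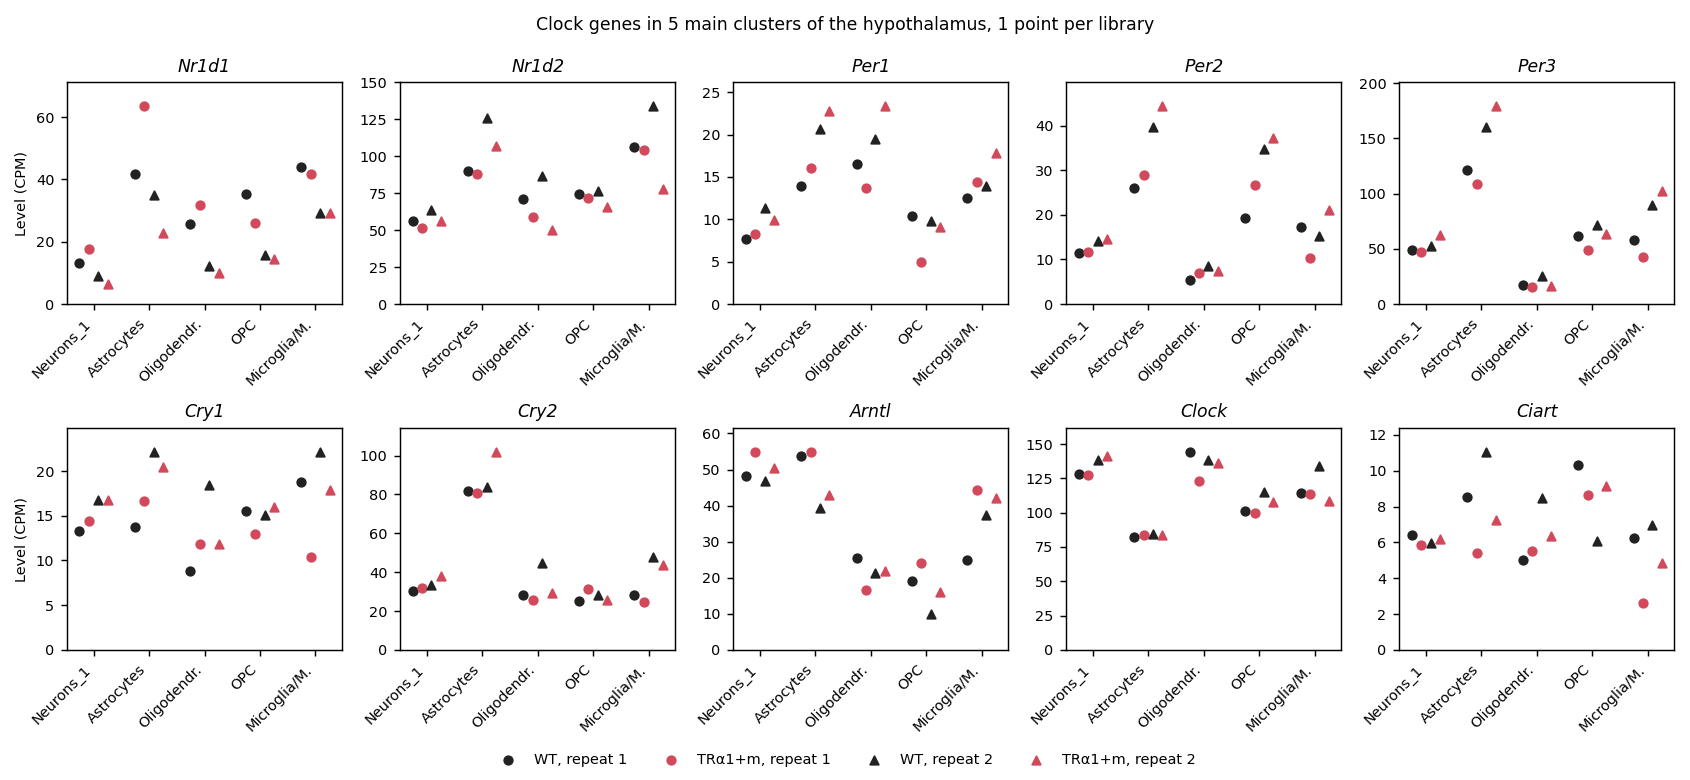
The level of each clock gene in CPM (1 panel per gene, each with its own axis from 0) in the 4 libraries of each main cluster, with WT in black, TRα1+m in red, repeat 1 as circles and repeat 2 as triangles. The triangles of Nr1d1 lie below its circles in all 5 clusters, and for Per3 repeat 2 lies above repeat 1 within each genotype.

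The repeats differed in the clock genes more often than the genotypes did. With edgeR's quasi-likelihood test and Benjamini-Hochberg adjustment over all genes of a cluster, 0 of 49 tests of a clock gene passed an adjusted p of 0.05 for genotype (1 at an unadjusted p under 0.05), where 0.0188% of all 69052 tests passed. For repeat, 6 of 49 passed, where 10.4% of all tests passed, so that the share of clock genes was close to that of all genes. In the sub-clusters 0 of 116 tests passed for genotype and 8 of 116 for repeat, against 0.0031% and 10.1% of all tests. These fits held 1 factor each, and the small shares for genotype belong to them. With the repeat as a block, 550 of 12630 genes (4.35%) were called for genotype in Oligodendrocytes, against 13 without it. With the other factor as a block, 0 of 49 tests of a clock gene passed for genotype. For repeat 9 of 49 passed, where 6.27% to 25.2% of the genes of a cluster passed. The size of the repeat difference exceeded that of the genotype difference on the log2 scale in 31 of 49 pairs of gene and cluster. The share of all genes with this order is not given here, so the count does not set the clock genes apart. The pairs also use the same 4 libraries in each cluster. Each difference between genotypes or repeats compares 2 libraries with 2, each a pool of mice. The p-values set it against the spread between the 2 libraries of a group. For each gene edgeR estimates that spread partly from the other genes of the cluster. In the fits without a block that spread also holds the difference of the other factor. An exact permutation test of a single gene could not go below p = 0.333. With 1 library per genotype in each repeat, a change of the genotype difference between repeats could not be tested.

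**Figure D2:**
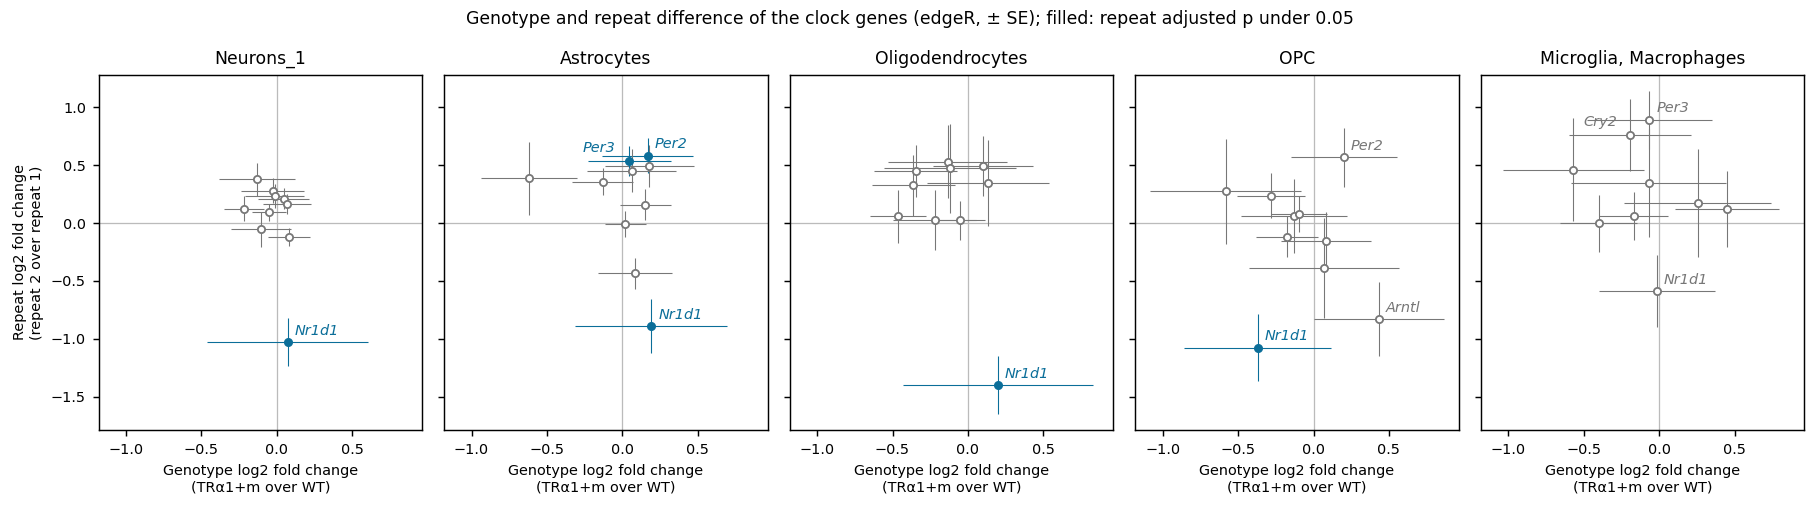
The log2 difference between TRα1+m and WT (x axis) and between repeat 2 and repeat 1 (y axis) for each clock gene in each main cluster, with bars for ± 1 SE of the edgeR fit. Filled points, which are Nr1d1 in 4 clusters and Per2 and Per3 in Astrocytes, passed the test for repeat.

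Nr1d1 was the clock gene with the clearest difference between repeats. It was below repeat 1 in all 5 main clusters and passed the test for repeat in 4 of them, and in no cluster did it pass the test for genotype. In Neurons_1 it measured 13.1 CPM in WT and 17.7 CPM in TRα1+m of repeat 1, and 8.93 CPM in WT and 6.37 CPM in TRα1+m of repeat 2. Both libraries of repeat 1 lay above both of repeat 2, and the TRα1+m library was the highest in repeat 1 and the lowest in repeat 2. The log2 difference between repeats was -1.03 (SE 0.205, n = 2 against 2 libraries, adjusted p = 0.0132 by edgeR's quasi-likelihood test). In this cluster 21.1% of all genes passed the test for repeat, and 9.58% were called lower in repeat 2.

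Astrocytes showed the same order of the 4 libraries. Nr1d1 was 41.6 CPM in WT and 63.5 CPM in TRα1+m of repeat 1, and 34.8 CPM in WT and 22.8 CPM in TRα1+m of repeat 2. The log2 difference was -0.89 (SE 0.234, adjusted p = 0.0452 by edgeR), where 6.21% of genes were called lower. In Oligodendrocytes the 4 levels were 25.8 and 31.8 CPM in WT and TRα1+m of repeat 1 and 12.2 and 9.90 CPM in repeat 2. That was the largest of the 5 differences, -1.40 on the log2 scale (SE 0.253, adjusted p = 0.0228 by edgeR), where 1.9% of genes were called lower.

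In OPC the WT library of repeat 1 was the highest, at 35.5 CPM of Nr1d1, with 26.0 CPM in TRα1+m, and repeat 2 gave 15.9 and 14.5 CPM. The log2 difference was -1.07 (SE 0.291, adjusted p = 0.031 by edgeR), where 3.36% of genes were called lower. Microglia, Macrophages had 43.9 and 41.8 CPM in repeat 1 and 29.1 and 29.2 CPM in repeat 2, from 18 to 32 UMIs per library. The groups did not overlap, but the difference of -0.59 (SE 0.308) did not pass (adjusted p = 0.382 by edgeR), and 20.4% of genes in that cluster had repeat 2 wholly below repeat 1. Of the 9467 genes tested in all 5 clusters, 1.83% were called lower in repeat 2 in at least 4 of them, as Nr1d1 was. The repeat difference of Nr1d1 in Neurons_1 was not shown to differ from that in any glial cluster, since the differences between them were 0.20 (SE 0.159) in Astrocytes, -0.33 (SE 0.256) in Oligodendrocytes, -0.03 (SE 0.322) in OPC and 0.43 (SE 0.362) in Microglia, Macrophages on the log2 scale (adjusted p of 0.604 or more by edgeR). The shares of all genes that passed these tests were 5.81%, 2.45%, 1.77% and 2.54%.

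Several of these calls rested on single libraries. Without the TRα1+m library of repeat 1 the adjusted p of Nr1d1 by edgeR was 0.0603 in Neurons_1, 0.299 in Astrocytes and 0.358 in Oligodendrocytes. Without the WT library of repeat 1 it was 0.131 in Oligodendrocytes and 0.264 in OPC, and without the TRα1+m library of repeat 2 it was 0.0625 in OPC. The differences stayed below 0 in each of these fits, from -0.56 to -1.55 on the log2 scale.

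In most main clusters the difference between genotypes in Nr1d1 had opposite signs in the 2 repeats, a change that could not be tested. TRα1+m minus WT on the log2 scale was 0.40 in repeat 1 and -0.43 in repeat 2 in Neurons_1, 0.60 and -0.59 in Astrocytes, and 0.29 and -0.27 in Oligodendrocytes. In OPC it was below 0 in both repeats (-0.43 and -0.13). In Microglia, Macrophages it was -0.07 in repeat 1 and close to 0 in repeat 2. The fitted genotype differences over both repeats were 0.07 (SE 0.534) in Neurons_1, 0.19 (SE 0.505) in Astrocytes, 0.20 (SE 0.628) in Oligodendrocytes, -0.37 (SE 0.488) in OPC and -0.02 (SE 0.384) in Microglia, Macrophages. The sign was opposite between repeats in 4 of 5 main clusters and in 13 of 14 sub-clusters. All of these come from the same 4 libraries, so the counts do not repeat the pattern independently. Nr1d1 had as few as 13 UMIs over the 4 libraries in a sub-cluster. The share of all genes with opposite signs is not given here. With the repeat as a block the SEs were 0.227, 0.209, 0.252, 0.293 and 0.342 in the same order of clusters, and no genotype difference of Nr1d1 was called.

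The lower level of Nr1d1 in repeat 2 was also seen within the sub-clusters. It was lower in repeat 2 within both genotypes in 10 of 14 sub-clusters, and all 11 sub-clusters in which it could be tested had a difference below 0. The sub-clusters are parts of Neurons_1 and Astrocytes from the same libraries, so these counts are not independent of the results above. The share of all genes with such counts is not given here. The test was passed in Astrocytes proper (-0.92), GABA neurons (-0.99), Glutamatergic Neurons_1 (-1.16), Glutamatergic Neurons_2 (-1.06) and vasopressin neurons (-1.31, all on the log2 scale). In Astrocytes proper and both groups of glutamatergic neurons 4.35%, 7.72% and 7.01% of genes were called lower. In GABA neurons the level was 12.5 and 15.7 CPM in WT and TRα1+m of repeat 1 and 7.84 and 6.66 CPM in repeat 2 (adjusted p = 0.00172 by edgeR), where 10.2% of genes were called lower. In vasopressin neurons it was 42.0 and 53.6 CPM in repeat 1 and 24 and 14 CPM in repeat 2, from 9 to 61 UMIs per library (adjusted p = 0.0119 by edgeR), where 2.66% of genes were called lower. The sub-cluster that the authors labelled MCH neurons, after melanin-concentrating hormone, and tanycytes, which line the third ventricle, had overlapping repeats. Their differences were -0.44 (SE 0.322) and -0.84 (SE 0.373). Nuclei labelled MCH neurons had median UMIs of 1855 and 3840 in WT and TRα1+m of repeat 1 and 1481 and 1499 in repeat 2. Those of GABA neurons had 3873, 3564, 5117 and 4674 in the same order. Whether the label held a single cell type was not tested, and MCH neurons below means the label. Vasopressin neurons likewise means the sub-cluster of that label.

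**Figure D3:**
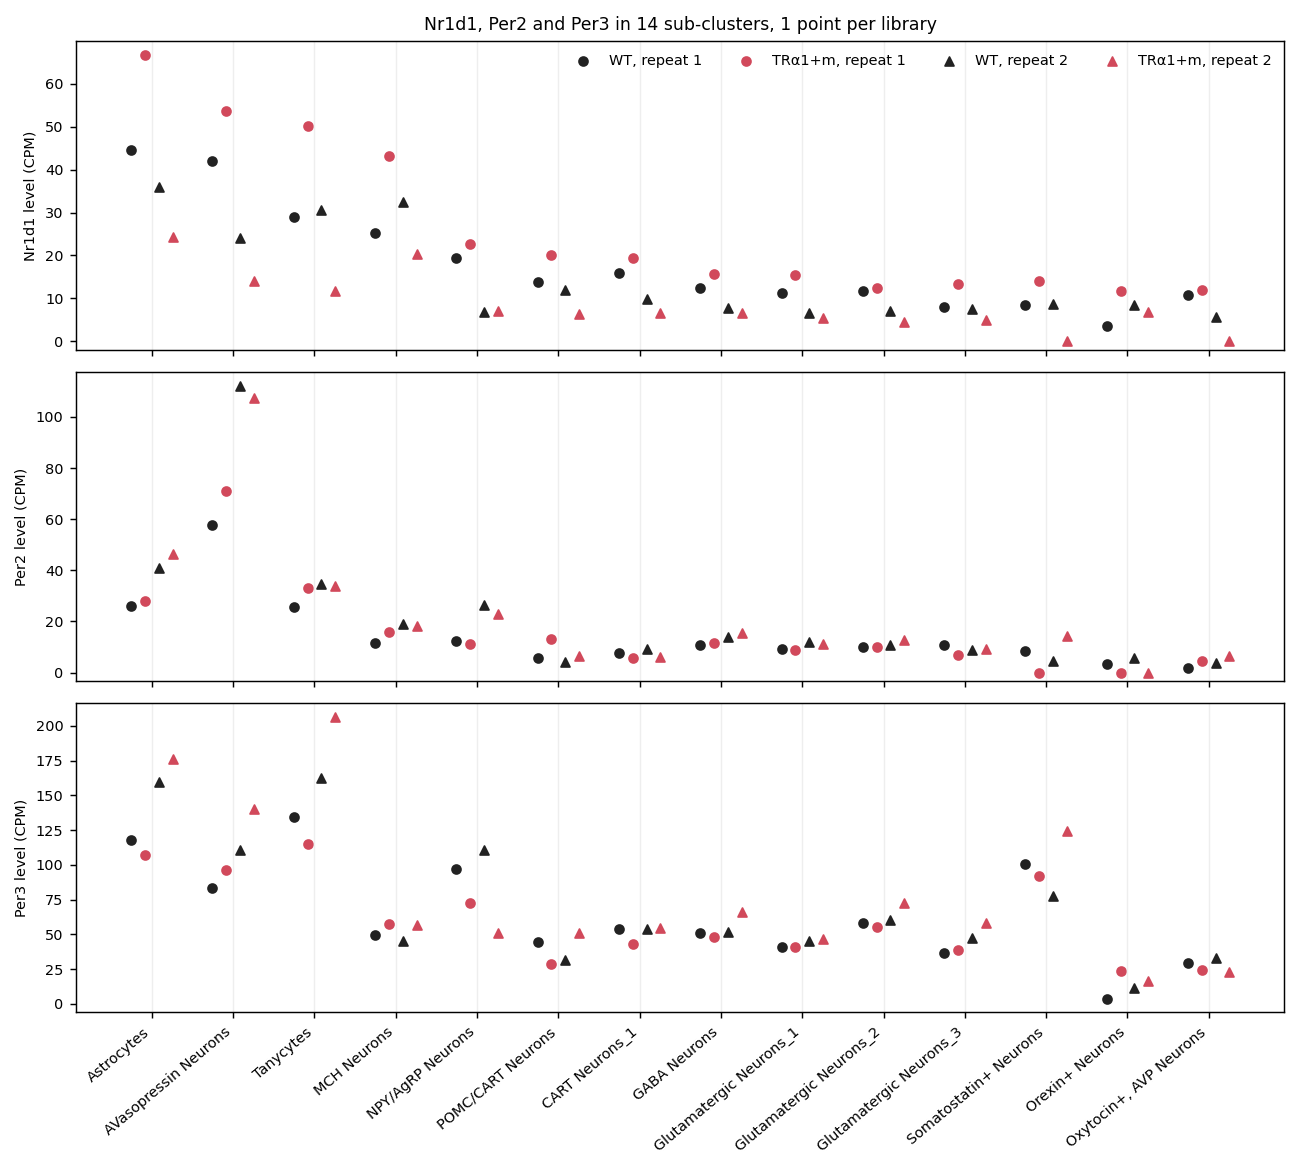
The level in CPM of Nr1d1, Per2 and Per3 in the 4 libraries of each of the 14 sub-clusters, with WT in black, TRα1+m in red, repeat 1 as circles and repeat 2 as triangles. For Nr1d1 the TRα1+m library is the highest in repeat 1 of every sub-cluster, and for Per2 both triangles lie above the circles in Astrocytes and in vasopressin neurons.

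Other measures moved with the repeats as well. The summed level of 79 ribosomal protein genes, a list made after the values were seen, was 10734 and 11376 CPM in WT and TRα1+m of repeat 1 and 8560 and 6574 CPM in repeat 2 in Neurons_1, and the same 4 values in Astrocytes were 23292, 24776, 17115 and 12910 CPM. In Neurons_1 and Astrocytes the libraries stood in the same order as for Nr1d1. In Oligodendrocytes, in OPC, and in Microglia, Macrophages the order was not the same as for Nr1d1. The log2 ratio of this sum between repeats was -0.55 to -0.68 over the 5 clusters. The 4 astrocyte markers, counted in Neurons_1 where they should be near 0, summed to 272 and 362 CPM in repeat 1 and 226 and 170 CPM in repeat 2, with none of the 4 at 0. That is a log2 ratio of -0.68. The other non-neuronal sets in Neurons_1 did not all share it. Their ratios were -0.15 (oligodendrocytes), -0.36 (OPCs), -0.23 (tanycytes), -0.01 (microglia and macrophages) and 0.44 (endothelial and mural). The 3 oligodendrocyte markers in Oligodendrocytes rose, from 7181 and 6461 CPM in repeat 1 to 15313 and 18638 CPM in repeat 2. The part of these shifts in the Nr1d1 result was not tested.

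Nr1d1 spans 7402 bases, short for a gene in nuclei where introns are also counted, and was therefore set beside other short genes. Genes that span 5 to 10 kb had a median difference between repeats, as log2 of the mean CPM + 1, of 0.07 in Neurons_1, 0.04 in Astrocytes, 0.01 in Oligodendrocytes, 0.11 in OPC and 0.06 in Microglia, Macrophages. On this scale Nr1d1 was at -0.92, -0.85, -1.31, -0.97 and -0.54. Of the genes with such spans 1.93%, 6.01%, 3.06%, 4.88% and 15.1% were lower than Nr1d1. Genes that span under 5 kb had medians of 0.001, -0.11, -0.13, 0.01 and -0.09 in the same order of clusters. Of these shorter genes 3.82%, 13.8%, 6.11%, 9.78% and 26.5% were lower than Nr1d1. The part of gene length in the Nr1d1 result was not tested.

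The Period genes were on the other side of 0. Per1, Per2 and Per3, and Cry1 with them, had a repeat difference above 0 in all 5 main clusters. The share of all genes with this pattern is not given here. Of these 20 differences 2 passed the test, where 10.4% of all tests in the main clusters passed. In Astrocytes, Per2 was 26.0 and 28.9 CPM in WT and TRα1+m of repeat 1 and 39.7 and 44.4 CPM in repeat 2. Both libraries of repeat 2 lay above both of repeat 1, as for 32.6% of genes there, and the log2 difference was 0.58 (SE 0.149, adjusted p = 0.0422 by edgeR). Per3 in Astrocytes was 121 and 108 CPM in repeat 1 and 160 and 179 CPM in repeat 2, a log2 difference of 0.53 (SE 0.128, adjusted p = 0.0324 by edgeR). In Astrocytes 10.2% of all genes passed the test in either direction and 4.01% were called higher, and 3 of the 10 clock genes passed, Nr1d1 among them. Without the WT library of repeat 1 the adjusted p by edgeR was 0.227 for Per2 and 0.0978 for Per3, and without the TRα1+m library of repeat 1 it was 0.161 and 0.275. Without the TRα1+m library of repeat 2 it was 0.0738 for Per2.

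Per3 was higher in repeat 2 within each genotype in all 5 clusters, a pattern that 10.7% of the 9467 genes shared. Its widest gap was in Microglia, Macrophages, 57.9 and 43.1 CPM in repeat 1 against 89.7 and 102 CPM in repeat 2 (0.89, SE 0.25), which did not pass (adjusted p = 0.0594 by edgeR, where 3.54% of genes passed, and 0.0168 with genotype as a block, where 6.27% passed). The summed level of 5 endothelial and mural markers in this cluster was 313 and 333 CPM in WT and TRα1+m of repeat 1 and 784 and 1175 CPM in repeat 2, and that of the 4 markers of microglia and macrophages was 2794 and 2384 CPM and then 6590 and 8124 CPM. None of the 9 was at 0 in all libraries, and their part in the Per3 result was not tested. Nr1d1 had the opposite pattern, lower in all 10 pairs, which 7.47% of the 9467 genes shared. Per2 in vasopressin neurons was 57.5 and 71.1 CPM in repeat 1 and 112 and 107 CPM in repeat 2 (0.72, SE 0.182, adjusted p = 0.0265 by edgeR), where 1.99% of genes were called higher. The summed level of 8 genes of the suprachiasmatic nucleus, Avp left out, was also above repeat 1 there, at 687 and 600 CPM in WT and TRα1+m of repeat 1 and 1393 and 931 CPM in repeat 2 (a log2 ratio of 0.85), and their part in the result was not tested. Per1 came nearest to the threshold in Neurons_1, with 7.71 and 8.32 CPM in repeat 1 and 11.4 and 9.88 CPM in repeat 2 (0.38, SE 0.141, adjusted p = 0.1 by edgeR).

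The remaining genes did not pass the test for repeat in a main cluster. Arntl, the activator that REV-ERBα represses, was 53.7 and 54.9 CPM in WT and TRα1+m of repeat 1 and 39.3 and 43.0 CPM in repeat 2 in Astrocytes. Repeat 2 lay wholly below repeat 1. The repeats were apart in either direction for 57.5% of genes there, with repeat 2 wholly above for 32.6%. The difference for Arntl was -0.43 (SE 0.132, adjusted p = 0.0723 by edgeR). With genotype as a block the adjusted p by edgeR was 0.0206 for Arntl and 0.027 for Nr1d2, which was higher in repeat 2, where 20.6% of genes passed. In OPC Arntl was 19.2 and 24.1 CPM in repeat 1 and 9.84 and 16.0 CPM in repeat 2, from 13 to 39 UMIs per library (-0.83, SE 0.321, adjusted p = 0.143 by edgeR). Cry2 had values above 0 in 4 of 5 clusters, at most 0.76 (SE 0.312) in Microglia, Macrophages. Clock stayed within 0.09 of 0 in all 5 clusters, with SEs of 0.0714 to 0.206. Ciart was between -0.38 (SE 0.431) and 0.47 (SE 0.386).

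Nr1d2 was the clock gene whose genotype difference kept its direction. It was lower in TRα1+m than in WT of the same repeat in all 5 main clusters, but in none did it pass the test. In Oligodendrocytes it was 71.0 CPM in WT and 58.8 CPM in TRα1+m of repeat 1, and 86.6 and 50.3 CPM in repeat 2, so that both WT libraries lay above both TRα1+m libraries. The same held for 20.6% of genes in that cluster. The log2 difference was -0.46 (SE 0.188, adjusted p = 0.92 by edgeR; 0.123 with the repeat as a block). In Neurons_1 Nr1d2 was 56.4 and 51.3 CPM in repeat 1 and 63.7 and 56.6 CPM in repeat 2 (-0.22, SE 0.134), and the other clusters gave -0.13 to -0.40. Of the 9467 genes, 1.99% were lower in TRα1+m in all 10 pairs, and 1.15% were higher. In the 14 sub-clusters Nr1d2 was lower in TRα1+m in both repeats in 7, higher in both in 2 and of opposite sign in 5.

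The clusters of neurons differed in their clock gene levels, and vasopressin neurons, a label of the authors, stood out by the order of their means. For 9 of the 10 genes their mean was the highest of the 12 neuronal sub-clusters, and for Cry2 it ranked 3rd. Per2 was 87.0 ± 26.8 CPM (SD, n = 4) in vasopressin neurons and 18.3 ± 7.56 CPM in NPY/AgRP neurons, the next in order, 4.76 times as high. Cry1 was 56.8 ± 17.8 CPM against 17.6 ± 8.79 CPM in somatostatin neurons (3.22 times) and Per1 39.1 ± 11.5 CPM against 16.2 ± 4.85 CPM in MCH neurons (2.41 times). For these 3 genes every vasopressin library lay above every library of the other 11 sub-clusters. How many of all genes were highest or apart in this sub-cluster is not given here. These counts therefore do not set the clock genes apart from other genes.

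The other genes overlapped with the next sub-cluster in their ranges over the libraries. Within each of the 4 libraries Arntl and Clock were still highest in vasopressin neurons among the 12 neuronal sub-clusters. Arntl was 93.3 ± 11.8 CPM against 73.3 ± 8.005 CPM in CART Neurons_1, Clock 191 ± 28.4 CPM against 148 ± 16.4 CPM in POMC/CART neurons, and Nr1d1 33.4 ± 17.8 CPM against 30.3 ± 9.95 CPM in MCH neurons. Ciart, at 15.8 ± 6.09 CPM, was also highest there, from 6 to 28 UMIs per library. The levels are descriptions, since the annotation was made from the same nuclei. Genes that mark the suprachiasmatic nucleus were also high in this sub-cluster, among them Vip at 358 ± 311 CPM, Rgs16 at 68.5 ± 10.7 CPM and Syt10 at 219 ± 44.95 CPM. The next neuronal sub-cluster had 12.2, 7.94 and 31.2 CPM on average. Six3 and Six6 were 1.84 and 1.59 times as high as in the next. Lhx1 was 62.1 ± 22.9 CPM against 59.0 ± 23.6 CPM in CART Neurons_1, with overlapping ranges. Avp itself was 3042 ± 2163 CPM in vasopressin neurons and 21430 ± 17311 CPM in the sub-cluster labelled Oxytocin+, AVP Neurons. That sub-cluster had 3.83 ± 2.71 CPM of Per1, 4.17 ± 1.93 CPM of Per2, 14.8 ± 4.69 CPM of Cry1 and 7.17 ± 5.49 CPM of Nr1d1. Those levels rest on 8 to 31 UMIs per gene over the 4 libraries. Arntl and Clock were at 52.7 ± 8.25 and 124 ± 19.6 CPM in it.

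**Figure D4:**
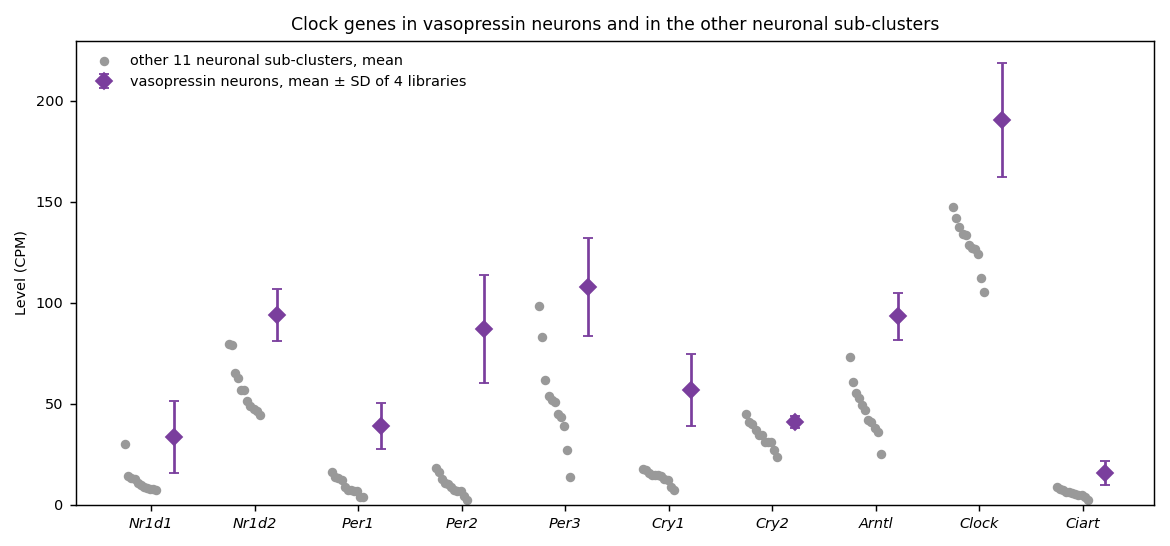
The level in CPM of each clock gene in vasopressin neurons (diamonds, mean ± SD of 4 libraries) and in the other 11 neuronal sub-clusters (grey points, each the mean of 4 libraries). The diamond is the highest mean for every gene but Cry2, and the gap is widest as a ratio for Per2.

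Thra, the mutated gene, lies tail to tail with Nr1d1 on chromosome 11 of GRCm38. Thra spans positions 98740638 to 98769006 on the plus strand and Nr1d1 98767932 to 98775333 on the minus strand, so that the spans share 1075 bases and the last exons share 263 bases (98768157 to 98768419). A shorter annotated transcript of Thra ends at 98765111, 2820 bases short of Nr1d1. Cell Ranger counts reads by strand, which separates the 2 genes where they overlap.

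Thra was lower in TRα1+m than in WT of the same repeat in all 5 main clusters, but did not pass the test. In Neurons_1 it was 101 CPM in WT and 80.8 CPM in TRα1+m of repeat 1, and 117 and 86.3 CPM in repeat 2. Both WT libraries lay above both TRα1+m libraries, as for 5.71% of genes there, and the log2 difference was -0.44 (SE 0.123, adjusted p = 1.0 by edgeR). In Microglia, Macrophages the levels were 183 and 121 CPM in repeat 1 and 214 and 126 CPM in repeat 2, a difference of -0.69 (SE 0.226). The other clusters gave -0.29 to -0.38. These counts take normal and mutant transcripts together, so they do not test the mutation itself. With the repeat as a block Thra passed in the sub-clusters GABA neurons (-0.44) and MCH neurons (-0.64), where 0.593% and 0.416% of genes were called lower, and Nr1d1 was not called for genotype in either.

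Of the 10 other genes within the neighbourhood of Nr1d1, Thra included, 9 could be tested in Neurons_1 and 5 to 8 in the glial clusters. None passed for genotype in any main cluster, where 0.0188% of all tests passed. For repeat, 3 passed in Neurons_1, where 21.1% of all genes passed, and none in the glial clusters, where 2.72% to 10.2% passed. With genotype as a block Psmd3 also passed in Astrocytes and in Oligodendrocytes (adjusted p = 0.0336 by edgeR), where 20.6% and 12.4% of all genes passed. Psmd3, a proteasome subunit gene, and Msl1 were higher in repeat 2, and Rapgefl1 was lower. These 3 were named after their values were seen. Wipf2 was lower in TRα1+m in all 10 pairs, as Thra, Nr1d2 and 1.99% of the 9467 genes were. The directions in the neighbourhood were thus mixed for repeat, and no neighbour was lower in repeat 2 in all 10 pairs as Nr1d1 was.

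**Figure D5:**
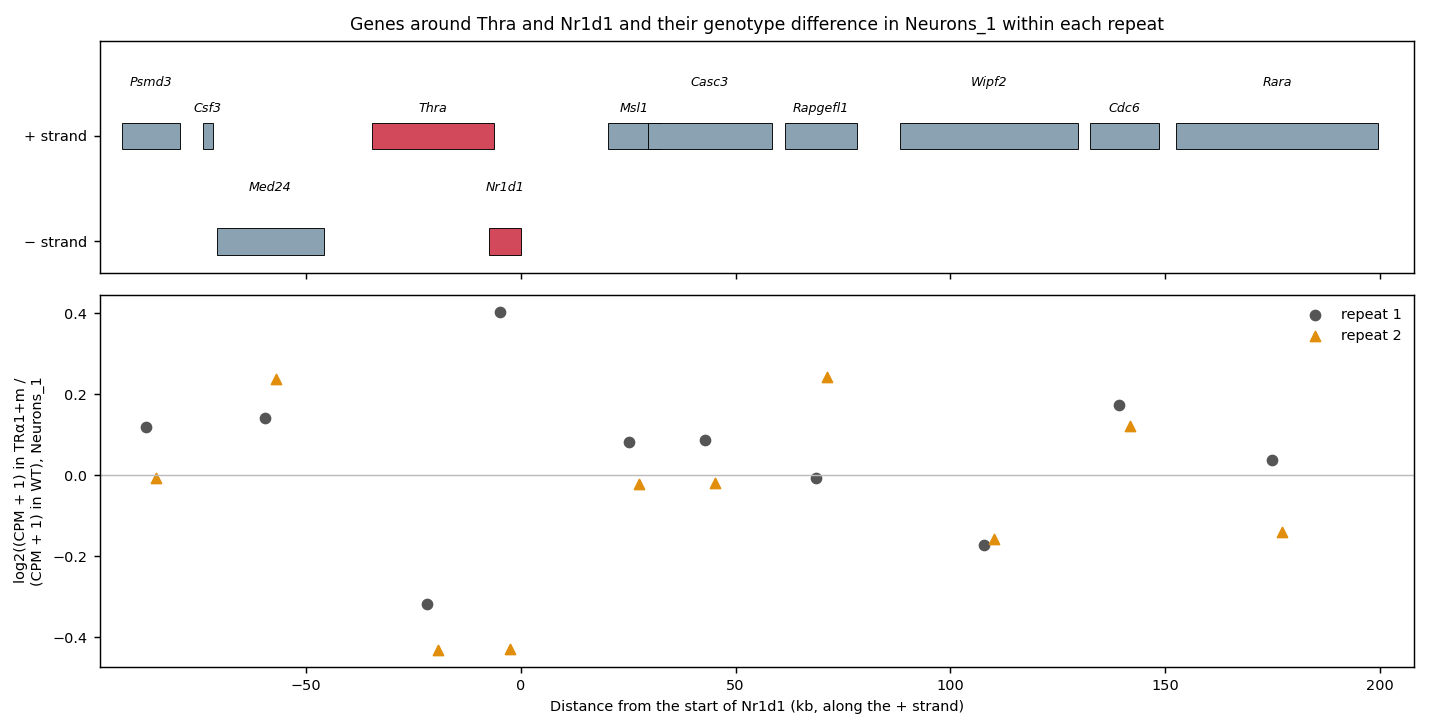
Genes around Nr1d1 on each strand (top, boxes to scale) and the log2 ratio of CPM + 1 in TRα1+m to that in WT in Neurons_1 in each repeat (bottom), both by distance from the start of Nr1d1 in kb, for the genes tested there. Thra lies below 0 in both repeats, and Nr1d1 lies at 0.40 in repeat 1 and -0.43 in repeat 2.

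A list of 18 other clock genes put these results beside the rest of the pathway. For genotype, none of the 18 passed in any main cluster (14 to 18 tested in each), where 0.0188% of all tests passed. For repeat, 3 passed in Neurons_1 and 3 in Astrocytes, where 21.1% and 10.2% of all genes passed. In Oligodendrocytes, OPC, and Microglia, Macrophages 1 passed in each, where 2.72%, 6.69% and 3.54% of all genes passed. With genotype as a block 6 passed in Neurons_1 and 5 in Astrocytes, against 25.2% and 20.6% of all genes, and the count in the other clusters stayed at 1. Rorb, a ROR receptor gene that competes with REV-ERB for its sites, was lower in repeat 2 in 4 clusters. In Neurons_1 it was 312 and 316 CPM in WT and TRα1+m of repeat 1 and 211 and 176 CPM in repeat 2 (-0.73, SE 0.111, adjusted p = 0.00453 by edgeR). Its differences in Astrocytes, Oligodendrocytes and OPC were -0.50 (SE 0.12), -0.97 (SE 0.192) and -0.68 (SE 0.159).

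In Microglia, Macrophages Rorb measured 890 and 804 CPM in the WT libraries and 423 and 486 CPM in the TRα1+m libraries of repeats 1 and 2. That difference of -0.91 did not pass (adjusted p = 1.0 by edgeR; 0.00544 with the repeat as a block, where 0.115% of genes were called lower). The genotype difference of Rorb there was not shown to differ from that in Neurons_1, since the difference between them (-0.74, SE 0.331) did not pass. The genes that passed in 1 cluster alone were named after their values were seen. Dbp and Hlf, activators that bind the D-box, were higher in repeat 2 in Astrocytes (0.72, SE 0.143 and 0.63, SE 0.133). Dbp was 42.8 and 38.6 CPM in repeat 1 and 75.3 and 61.3 CPM in repeat 2. Csnk1e, a kinase of the PER proteins, was higher and Cipc, a repressor of CLOCK, was lower in Neurons_1, where 11.5% of genes were called higher, and Timeless was higher in Microglia, Macrophages, where 1.72% were.

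Of the 10 genes and the 18 others, 23 were tested in all 5 clusters. Nr1d2, Dbp and Cipc were lower in TRα1+m in all 10 pairs, as 1.99% of the 9467 genes were. None was higher in all 10, as 1.15% were. Nr1d1 was the 1 gene of the 23 that was lower in repeat 2 in all 10 pairs, as 7.47% of the 9467 were. Per3, Tef and Csnk1e were higher, as 10.7% were. The 10 pairs come from the same 4 libraries in 5 clusters, so they are not independent of each other.

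Lists of genes that respond to light or activity, to glucocorticoids and to temperature were set beside the clock genes, since each of these acts on the clock. None of their genes passed for genotype in the fit without a block, where 0.0188% of all tests in the main clusters passed. With the repeat as a block Sgk1 and Klf9, both of the glucocorticoid list, were called for genotype in Oligodendrocytes, where 4.35% of all genes were. Klf9 was lower in TRα1+m in all 10 pairs, as 1.99% of the 9467 genes were, and Sgk1 did not keep 1 direction in all 10. Which hormone these 2 genes respond to here was not tested. Of 13 immediate early genes, Nr4a1 alone passed for repeat, in Neurons_1, where all 13 were tested and 21.1% of all genes passed. Of 12 glucocorticoid response genes, Mt1 and Mt2 passed, which encode metallothioneins, proteins that bind metals. Mt1 was lower in repeat 2 in all 5 clusters, with log2 differences of -1.67 to -1.89, and in Neurons_1 it was 296 and 423 CPM in WT and TRα1+m of repeat 1 and 127 and 70.1 CPM in repeat 2. That is the same order of libraries as for Nr1d1 in Neurons_1. The shares of all genes called lower in repeat 2 were 9.58% in Neurons_1, 6.21% in Astrocytes, 1.9% in Oligodendrocytes, 3.36% in OPC and 1.82% in Microglia, Macrophages. With genotype as a block neither Mt1 nor Mt2 was called in Neurons_1 (adjusted p of 0.204 and 0.265 by edgeR), while Mt2 was also called in OPC and Sgk1 in Oligodendrocytes, where 11.4% and 12.4% of all genes were called. The cold-inducible genes Rbm3 and Cirbp were higher in repeat 2, Rbm3 in 5 clusters and Cirbp in 3, and with genotype as a block both were called in all 5. In the fit without a block 2.72% (Oligodendrocytes) to 21.1% (Neurons_1) of all genes passed for repeat. The part of these genes in the clock gene results was not tested.

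The genes whose levels were most like those of Nr1d1 were sought over 20 values, the 4 libraries of 5 clusters, each cluster centred on its own mean, among 8440 genes with at least 10 CPM on average in every cluster. They were Rpl37a (Pearson r = 0.94), Trmt10a (0.937), Rps27 (0.933), Rpl31 (0.933) and Sec61g (0.931), of which 3 are ribosomal protein genes. Among clock genes, r with Nr1d1 was -0.779 for Csnk1e, -0.769 for Tef, -0.617 for Per3, -0.547 for Cry2 and -0.527 for Dbp. Rorb had r of 0.734, Bhlhe41 0.593 and Arntl 0.231. The genes most like Arntl were Prepl (0.837), Cdc5l (0.831), Luc7l (0.827), Thap4 (0.812) and Mdm2 (0.805). These correlations are descriptions, since the 5 clusters of a library share its mice, handling and depth.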

How the data were processed

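The authors sequenced nuclei by 10x Genomics 3′ chemistry and made the deposited counts, UMIs per gene and nucleus, with Cell Ranger 5.0.1 on mm10; clusters and their names come from the annotation the authors deposited, made with Seurat. Each library pooled 3 mice, and no column of values was left unused (0). The nuclei used were those in that annotation, 14652, 16435, 13323 and 11976 of the 17902, 19403, 16328 and 14557 barcodes in the matrices (WT and TRα1+m of repeat 1, then of repeat 2). By the study's methods the authors had filtered them on counts, genes, mitochondrial share and a Scrublet doublet score, and no further filter was applied here. Here the counts were summed per library and cluster. Any cluster that had under 10 nuclei in a library was left out, and so was Non-neuronal cells, which the authors did not analyze further. The sums were tested with edgeR 4.0.16 in R 4.3.3 (filterByExpr, TMM, robust quasi-likelihood fit, Benjamini-Hochberg over all genes of a cluster, threshold 0.05). Genotype and repeat were each fitted alone over the 4 libraries (2 residual degrees of freedom), and an additive fit with the other factor as a replicate block was an alternative (1 residual degree of freedom). Differences between cell types were tested as a term of a fit with library and cell type, Neurons_1 being the reference. SE is the log2 difference divided by the square root of F.

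The replicate numbers mark the 2 independent repeats, so they pair a WT with a TRα1+m library. Across genes, the repeat differences of WT and TRα1+m correlated with r of 0.768 in Neurons_1, 0.682 in Astrocytes, 0.546 in Oligodendrocytes, 0.49 in OPC and 0.386 in Microglia, Macrophages.

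The 10 genes and all lists were chosen with earlier results of these data known. Named by rule were the 10 genes, Thra, other clock genes called for genotype in any or for repeat in at least 2 main clusters, the most often called genes of the other lists, and the 5 genes most like Nr1d1 and Arntl. The 1 DESeq2 1.42.0 adjusted p that was NA was left as NA. The scripts were tested on simulated data. Pandas 2.3.3 and matplotlib 3.10.9 made the sums and plots. Intervals and SEs cover these libraries only.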

Additional observations from a re-analysis of the deposited data

Results flagged for a closer look

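Repeat differences of the 10 genes, the 18 other clock genes and Thra in each glial cluster were tested against those in Neurons_1. Of these tests, 4 passed an adjusted p of 0.05 by edgeR's quasi-likelihood test. Over all genes 5.81%, 2.45%, 1.77% and 2.54% passed in Astrocytes, Oligodendrocytes, OPC, and Microglia, Macrophages. The count for the clock genes was not shown to exceed these shares. The repeat difference of Per3 was larger in Astrocytes than in Neurons_1 by 0.38 on the log2 scale (SE 0.101, adjusted p = 0.0353), where 5.81% of all genes passed. For Hlf, a D-box activator, the same comparison gave 0.63 (SE 0.111, adjusted p = 0.00193). Rora and Rorb, which encode ROR receptors, differed between Microglia, Macrophages and Neurons_1 by 0.70 (SE 0.214, adjusted p = 0.0442) and 0.72 (SE 0.183, adjusted p = 0.00617), where 2.54% of all genes passed. Rorb was lower in repeat 2 in Neurons_1, and its repeat difference in Microglia, Macrophages was -0.06 (SE 0.384). Of the 10 genes, only Per3 passed, and the call was lost without the WT library of repeat 1 and without either TRα1+m library.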

How the results depend on the processing

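None of the 10 genes was called for genotype in the main clusters, in the sub-clusters or in the difference between cell types under any alternative (counts of 0, with up to 7 tests at an unadjusted p under 0.05 by edgeR and 0 by DESeq2). The count of calls for repeat was 6 in the main clusters and stayed at 6 with DESeq2's size factors in edgeR and with a bias-adjusted fit, while it was 8 without a filter on low counts and 2 with DESeq2's own test. In the sub-clusters it was 8, with 10 unfiltered and 3 with DESeq2. The 1 call of a difference between cell types was 0 with DESeq2. Leaving out 1 library at a time gave 1 to 8 calls in the main clusters (2 without WT and 1 without TRα1+m of repeat 1), 4 to 13 in the sub-clusters (13 without WT of repeat 2, 4 without TRα1+m of repeat 1) and 0 to 1 for the difference between cell types. The cause was not tested. Leaving out a library also assumes that the lone library of its arm varies like the others.

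With the other factor as a replicate block, 9 calls for repeat were made in the main clusters and 12 in the sub-clusters, among them the 6 and 8 of the fit without it. Combining the block with the bias-adjusted fit, an alternative chosen after seeing the data, gave the same counts. The genotype difference of Nr1d1 in Neurons_1 turned from 0.07 to -0.057 with the block and to -0.028 with both. No call for genotype of the 10 genes changed under the block.

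Leaving out single libraries turned the sign of several genotype differences that had not been called. For Nr1d1 the ranges were -0.88 to 0.64 in Neurons_1, -0.74 to 0.73 in Astrocytes, -0.86 to 0.87 in Oligodendrocytes, -0.91 to 0.37 in OPC and -0.33 to 0.32 in Microglia, Macrophages. They were -0.32 to 0.10 for Nr1d2 in Astrocytes, and for Dbp -0.57 to 0.022 in Neurons_1, -0.60 to 0.20 in Astrocytes and -0.57 to 0.33 in Microglia, Macrophages. In all, 10 to 14 of 49 genotype differences changed sign when 1 library was left out, and 3 to 7 of 49 repeat differences did. No called repeat difference turned its sign under any alternative. Of the 5 genes most like Nr1d1, 3 stayed with a minimum of 50 CPM and 4 with a pseudocount of 5, and of those most like Arntl 1 and 4. Low counts limit Ciart, Per1 and Cry1 in the smaller glial clusters.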

Other observations

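The cluster Neurons_2, left out of the comparisons, held 852 nuclei of the TRα1+m library of repeat 2 and 1 to 6 nuclei of the other libraries. In that library Nr1d1 was counted 23 times there (8.17 CPM) and Per2 35 times (12.4 CPM), near their levels in Neurons_1 of the same library, 6.37 and 14.6 CPM. No Nr1d1 UMI was counted in the nuclei of Neurons_2 in the other libraries. In Non-neuronal cells, also left out, Nr1d1 had 2 to 6 UMIs per library. Its level there was 16.3 and 20.7 CPM in WT and TRα1+m of repeat 1 and 40.9 and 17.6 CPM in repeat 2.

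Vasopressin transcripts were also counted in glial nuclei. Avp passed the test for repeat, with lower levels in repeat 2, in Astrocytes, Oligodendrocytes and Microglia, Macrophages, where 6.21%, 1.9% and 1.82% of all genes were called lower. In Neurons_1 it was higher in repeat 2, where 11.5% of all genes were called higher.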
